A study of Arabidopsis thaliana with 36 samples.

Results

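This experiment asked what remains of the iron deficiency response of wild-type Arabidopsis thaliana roots when the bacterial peptide flg22 is present. It is the comparison of 3 RNA-seq libraries of Fe-deficient, flg22-treated roots with 3 libraries of Fe-sufficient, flg22-treated roots, chosen by their treatment labels from a series of 36 libraries. The series crossed 3 genotypes with 4 treatments, with 3 libraries for each of the 12 groups. All plants were seedlings aged 7 days, raised with iron and then kept for 24 h in liquid medium, and about 15 roots were pooled for each library. Fe-sufficient medium (+Fe) held 75 uM Fe, and Fe-deficient medium (-Fe) held 50 uM FerroZine, a chelator of ferrous iron. Both groups of this experiment received 100 nM flg22 and carried the Col-0 wild-type (WT) genotype, so flg22 is common to the treated and the control roots. The groups set beside them were untreated WT with and without Fe, the receptor mutant fls2 with flg22, and IMA1ox with flg22. Untreated fls2 and IMA1ox are used where named. The labels name no allele for fls2. IMA1ox is UBQ10::mCitrine-IMA1, which drives a tagged IMA1 peptide from a promoter active in most tissues, so its IMA1 transcript does not mark endogenous iron status.

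Plants that run short of iron switch on a transcriptional cascade. Upstream bHLH factors of subgroup IVc activate the genes of the subgroup Ib bHLH factors, the repressor PYE and the small IMA peptides, while BTS-type ubiquitin ligases restrain the upstream factors. The Ib factors pair with the root regulator FIT to switch on ferric reductase FRO2 and the transporter IRT1 in the outer root layers. flg22 is a fragment of bacterial flagellin that the receptor kinase FLS2 perceives, and it triggers pattern immunity, which in roots acts alongside changes in iron handling.

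Levels below are in CPM, counts scaled to a common library size. A log2 fold change is Fe-deficient over Fe-sufficient, given ± its standard error with n = 3 libraries per group. Genes with an adjusted p under 0.05 in edgeR's quasi-likelihood test over the 20354 genes tested are called, and only these are said to rise or fall. The p-values measure the spread between pools of roots. The 6 libraries held 28959667 to 32952390 counts. FLS2 had no count in untreated fls2 roots, 4 counts over the 3 Fe-sufficient and 2 counts over the 3 Fe-deficient flg22-treated fls2 libraries, against 438 and 580 counts in the matching WT groups. Root identity genes (PYK10, SCR and PLT1) summed to between 21470 and 24380 CPM in the 6 libraries, and the 9 green shoot genes to between 217.3 and 484.9 CPM.

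A pair of the 6 libraries stood apart. WT +Fe flg22 replicate 3 had more iron deficiency transcript than its partners, with IRT1 at 122 CPM against 13.9 and 2.34 CPM. WT -Fe flg22 replicate 2 had less than its partners, with IRT1 at 90.3 CPM against 285 and 258 CPM. That second library also had the highest sum of green shoot genes, 484.9 CPM against 230.0 and 217.3 CPM in its group and 228.0 to 332.7 CPM in the Fe-sufficient group. Of the 9 green shoot genes, 0 were called. The part of shoot material in the iron values was not tested. In pooled roots, fewer cells of a type and less RNA per cell cannot be told apart.

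With flg22 present, Fe deficiency raised 24 genes (0.118% of the genes tested) and lowered 4 (0.0197%), together 0.138%. Without flg22 it raised 635 (3.12%) and lowered 581 (2.85%), together 5.97%. Of the 24 risers, 13 are on 9 lists of iron genes, which were chosen with earlier results of these data known. These 13 are all 3 IMA peptides, 3 of the 4 subgroup Ib bHLH factors, PYE, BTS, BTSL1, OPT3, NAS4, FRO3 and ZIF1. The largest rise was that of AT2G14247, which is on no iron list. Rises of at least 2-fold were seen for 14 genes, and no fall reached 2-fold. At an unadjusted p under 0.05 there were 2109 genes, 10.4% of those tested. Groups did not overlap in CPM for 27 of the 28 called genes, beside 14.8% of all genes tested.

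The number of called genes rested on single libraries. It was 160 without WT +Fe flg22 replicate 3, 12 without WT +Fe flg22 replicate 1, 8 without WT +Fe flg22 replicate 2 and 13 without WT -Fe flg22 replicate 1. It was 80 without both libraries that stood apart, with 25 of the 28 genes still among them. That pair was picked because each lay nearest the opposite group in iron genes, so leaving it out widens the contrast by construction. DESeq2 called 75 genes, 27 of the 28 among them, and a fit of the 6 libraries alone called 5, of which 3 were among the 28. BTS and PYE were called under the 15 alternatives other than the 2-fold minimum, which neither reaches, and 8 genes under every omission of 1 library: AT2G14247, BTS, PYE, bHLH39, bHLH101, OPT3, AT5G05250 and ORG1. The other called genes each lost their call under at least 1 such omission.

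Of the 28 called genes, 25 were also called in untreated WT, 89.3% of these genes and 2.06% of the 1216 called there, and all 25 moved in the same direction. No library enters both comparisons. For 22 of the 25 the effect was smaller under flg22. Of the 1216 genes called without flg22, 1026 (84.4%) had the same sign under flg22. The 635 that rose had a median log2 fold change of 0.12 under flg22 against 0.40 without it, and the 581 that fell had -0.11 against -0.39, beside a median of 0.01 over all genes tested under flg22. These genes were chosen on the untreated libraries, so the untreated medians are favoured by the choice.

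**Figure D1:**
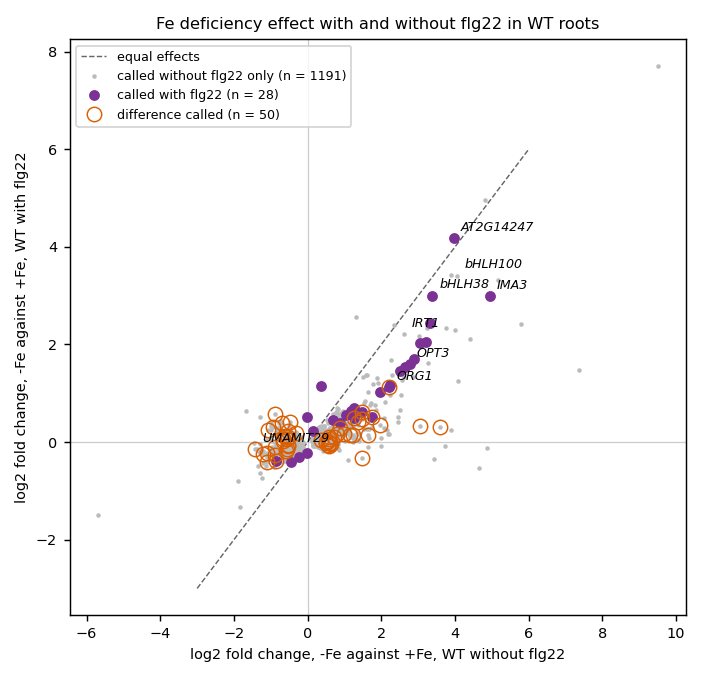
Each point is a gene called for Fe deficiency in WT with or without flg22. The x axis is its log2 fold change without flg22 and the y axis that with flg22 (n = 3 libraries per group). Genes called with flg22 (28) are filled circles and genes whose effect differed between the treatments (50) carry a ring. The 635 genes that rose without flg22 have a median of 0.40 on the x axis and 0.12 on the y axis.

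The IMA peptides are short regulators that keep the deficiency response on by interfering with the BTS ligases. IMA1 (AT1G47400) stood at 2.46, 2.37 and 3.65 CPM in Fe-sufficient and at 9.83, 5.44 and 7.94 CPM in Fe-deficient flg22-treated roots. Every Fe-deficient library lay above every Fe-sufficient one. IMA1 rose 2.74-fold (log2 1.45 ± 0.24, adjusted p = 0.00424), against 5.72-fold without flg22. IMA2 (AT1G47395) was at 4.59, 3.94 and 5.41 CPM with Fe and at 16.99, 11.2 and 16.8 CPM without it. Its groups also stayed apart, and it rose 3.23-fold (log2 1.69 ± 0.27, adjusted p = 0.00203). IMA3 (AT2G30766) was nearly silent with Fe, at 0.411, 0.100 and 0.912 CPM, and reached 3.88, 3.20 and 4.14 CPM in deficiency. It rose 7.92-fold (log2 2.98 ± 0.53, adjusted p = 0.00732), with its highest Fe-sufficient value in replicate 3. Without that library the log2 value of IMA3 was 3.86, and the 6 omissions of 1 library gave 2.49 to 3.86. IMA3 was called in 4 of those 6 omissions, and it was not called by DESeq2. IMA1 was called in 3 of the 6 omissions and IMA2 in 5. IMA1 and IMA2 are similar in sequence, so the split of reads between them is uncertain. Untreated Fe-deficient roots held 9.26 to 18.7 CPM of IMA1, 25.4 to 42.5 CPM of IMA2 and 9.26 to 16.98 CPM of IMA3. All flg22-treated values of IMA2 and IMA3 lay below these ranges, and those of IMA1 reached into theirs. Over the 24 genes that rose, 21 had all Fe-deficient flg22 libraries below all untreated Fe-deficient ones. The share of all genes tested with that layout was not counted, so the 21 describes these genes only.

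The subgroup Ib bHLH factors bind FIT and are among the most iron-responsive transcription factor genes of the root. bHLH38 (AT3G56970) was at 2.57, 0.968 and 11.8 CPM with Fe and at 50.5, 20.5 and 50.8 CPM without it under flg22. The groups did not overlap, although Fe-sufficient replicate 3 and Fe-deficient replicate 2 lay closest. bHLH38 rose 8.01-fold (log2 3.002 ± 0.53, adjusted p = 0.00797). With 1 library left out its log2 value ran from 2.50 to 4.52, the highest without Fe-sufficient replicate 3. It was called in 2 of those 6 omissions. bHLH39 (AT3G56980) was at 8.66, 7.51 and 15.97 CPM against 49.1, 28.03 and 54.2 CPM. It rose 4.10-fold (log2 2.03 ± 0.31, adjusted p = 0.00148). bHLH101 (AT5G04150) was at 1.78, 0.634 and 1.54 CPM against 5.52, 4.07 and 6.84 CPM. It rose 4.16-fold (log2 2.06 ± 0.28, adjusted p = 0.0006), and its groups were well separated. The fourth member, bHLH100 (AT2G41240), overlapped between groups, with 0.650, 0.134 and 9.16 CPM against 50.9, 7.24 and 46.0 CPM. Its log2 fold change was 3.41 ± 0.74 and its adjusted p was 0.0677. Over the 4 factors the median log2 fold change was 2.53 with flg22 and 3.30 without it. That order turned without both libraries that stood apart, where the medians were 3.76 and 3.30. For none of the 4 was the difference between those effects called.

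PYE, a bHLH repressor of iron distribution genes, and the BTS ligases restrain the response and are induced with it. PYE (AT3G47640) was at 15.1, 12.8 and 14.1 CPM with Fe and at 22.8, 19.8 and 23.1 CPM without it. The 2 groups were narrow and apart, and PYE rose 1.56-fold (log2 0.64 ± 0.09, adjusted p = 0.0006). BTS (AT3G18290) was at 65.3, 60.1 and 63.4 CPM against 107, 82.8 and 97.9 CPM, a rise of 1.52-fold (log2 0.61 ± 0.09, adjusted p = 0.00148). In untreated roots BTS rose 2.80-fold, and the difference of -0.88 ± 0.13 on the log2 scale was called (adjusted p = 0.0016). BTSL1 (AT1G74770), a root ligase of the same family that targets FIT, was at 64.0, 66.5 and 84.9 CPM against 122, 102 and 127 CPM. It rose 1.63-fold (log2 0.70 ± 0.12, adjusted p = 0.00662) and was called in 2 of the 6 omissions of 1 library. Its relative BTSL2 (AT1G18910) behaved otherwise, with 63.6, 62.9 and 57.7 CPM against 66.3, 59.6 and 60.6 CPM. The groups of BTSL2 overlapped, at a log2 fold change of 0.02 ± 0.06 with flg22 against 0.56 ± 0.06 without it, and that difference was called (adjusted p = 0.0016). The repressor gene bHLH11, which fell without flg22 at -0.89, was at -0.19 ± 0.13 with it.

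Genes that move iron within the plant gave the remaining called members. Of the 10 tested genes of the nicotianamine and iron distribution list, 3 rose, beside 0.118% of all genes tested. Of the 10, 5 had a positive log2 fold change, and the median was 0.06. OPT3 (AT4G16370), a phloem transporter that takes part in signalling shoot iron status to the root, was at 42.1, 36.5 and 61.1 CPM with Fe and at 153, 110.2 and 159.6 CPM without it. Both groups were far apart. OPT3 rose 3.03-fold (log2 1.60 ± 0.22, adjusted p = 0.00106), against 6.80-fold without flg22. NAS4 (AT1G56430), a synthase of the metal ligand nicotianamine, was at 4.55, 2.57 and 4.70 CPM against 30.1, 14.02 and 19.95 CPM. It rose 5.43-fold (log2 2.44 ± 0.37, adjusted p = 0.00189). FRO3 (AT1G23020), a mitochondrial ferric reductase, was at 57.6, 53.7 and 78.9 CPM against 155.6, 90.5 and 139 CPM. It rose 2.03-fold (log2 1.02 ± 0.18, adjusted p = 0.00732), with Fe-deficient replicate 2 closest to the Fe-sufficient range. ZIF1 (AT5G13740), a vacuolar transporter that loads nicotianamine, was at 44.4, 34.6 and 36.04 CPM against 62.9, 42.8 and 57.4 CPM. It was the called gene whose groups overlapped, and it rose 1.42-fold (log2 0.50 ± 0.10, adjusted p = 0.0318) against 3.34-fold without flg22. The difference for ZIF1, -1.24 ± 0.15, was called (adjusted p = 5.57e-05). The rises of ZIF1 and FRO3 were each called in 2 of the 6 omissions of 1 library, and that of NAS4 in 5.

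**Figure D2:**
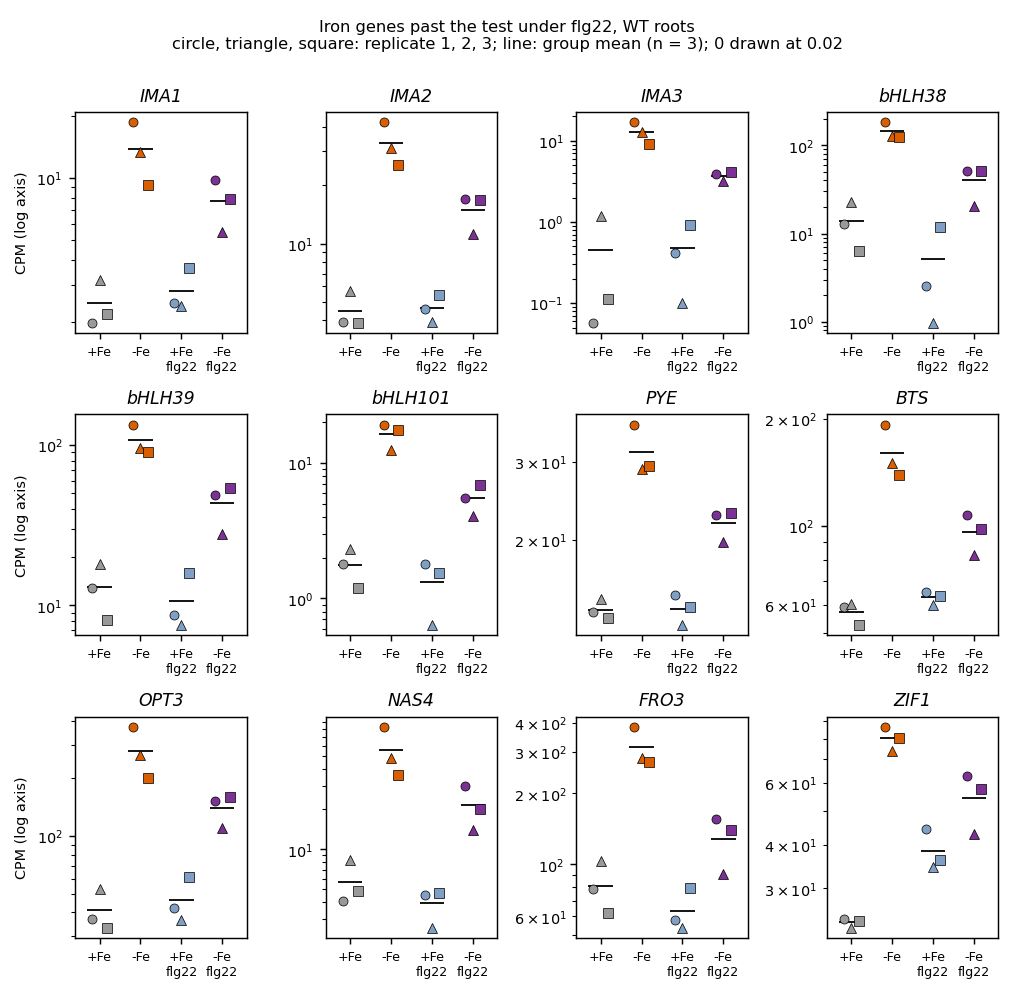
CPM on a log axis of 12 of the iron genes called under flg22, in the 4 WT groups. Symbols are the 3 libraries of a group and lines are group means. Fe-deficient flg22 libraries lie above the Fe-sufficient ones in every panel except ZIF1, where 1 pair of libraries overlaps.

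The uptake machinery downstream of FIT is the best known output of the cascade, and none of its 9 list members was called under flg22, against 7 risers without it. FIT itself (AT2G28160) was at 22.4, 22.02 and 25.4 CPM with Fe and at 29.3, 24.8 and 29.7 CPM without it. Those groups overlapped, at 0.26 ± 0.18 on the log2 scale (adjusted p = 0.598) against 1.01 ± 0.17 without flg22, where Fe-deficient roots held 68.8 to 93.0 CPM. IRT1 (AT4G19690), the main ferrous iron importer, was at 13.9, 2.34 and 122 CPM against 285, 90.3 and 258 CPM. FRO2 (AT1G01580), the root surface ferric reductase, was at 6.57, 2.40 and 74.5 CPM against 185, 39.5 and 149.5 CPM. In both genes Fe-sufficient replicate 3 lay above Fe-deficient replicate 2, and the other libraries were widely apart. The log2 fold changes were 2.20 ± 0.70 for IRT1 (adjusted p = 0.3) and 2.17 ± 0.76 for FRO2 (adjusted p = 0.349). Their values without flg22 were 2.63 ± 0.70 and 3.03 ± 0.76, and neither difference was called.

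Other FIT-branch genes had the same layout. IRT2, an intracellular relative of IRT1, was at 5.58, 3.47 and 11.8 CPM against 20.03, 11.4 and 20.4 CPM, giving 1.32 ± 0.31 on the log2 scale (adjusted p = 0.113). The transcription factor genes MYB10 and MYB72, needed for growth on iron-poor soil, had log2 fold changes of 1.56 ± 0.49 and 2.33 ± 0.82. MYB72 had no read in Fe-sufficient replicate 1 and 2 CPM in replicate 3. The proton pump genes AHA2 and AHA7 and the metal transporter gene NRAMP1 lay between -0.03 and 0.20. Of the 9 uptake genes, 5 had an unadjusted p under 0.05 in edgeR, beside 10.4% of all genes tested. DESeq2 (8 of the 9 with an adjusted p) and limma called IRT2 alone. Without both libraries that stood apart, IRT1, FRO2, IRT2, MYB10, MYB72 and bHLH100 were called, with log2 fold changes of 5.07, 5.22, 2.16, 2.68, 5.63 and 6.95. Under that omission the flg22-minus-untreated difference turned positive for IRT1 (2.44, from -0.42), FRO2 (2.20, from -0.86), MYB72 (2.40), IRT2 (0.29), MYB10 (0.04), bHLH100 (2.90) and bHLH38 (1.46), and none of these values was called. In absolute terms, Fe-deficient roots held 90.3 to 285 CPM of IRT1 with flg22 and 1166 to 1689 CPM without it. Those are Fe-deficient levels alone, and the difference of the IRT1 effects was not called. Mean IRT2 was 22.5 CPM with Fe and 82.1 CPM without it in untreated roots, and 6.95 and 17.3 CPM under flg22. Mean MYB10 was 7.19 and 44.4 CPM, then 2.84 and 8.32 CPM, and mean MYB72 2.14 and 19.3 CPM, then 0.734 and 3.66 CPM. These genes were lower with flg22 at both Fe levels.

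**Figure D3:**
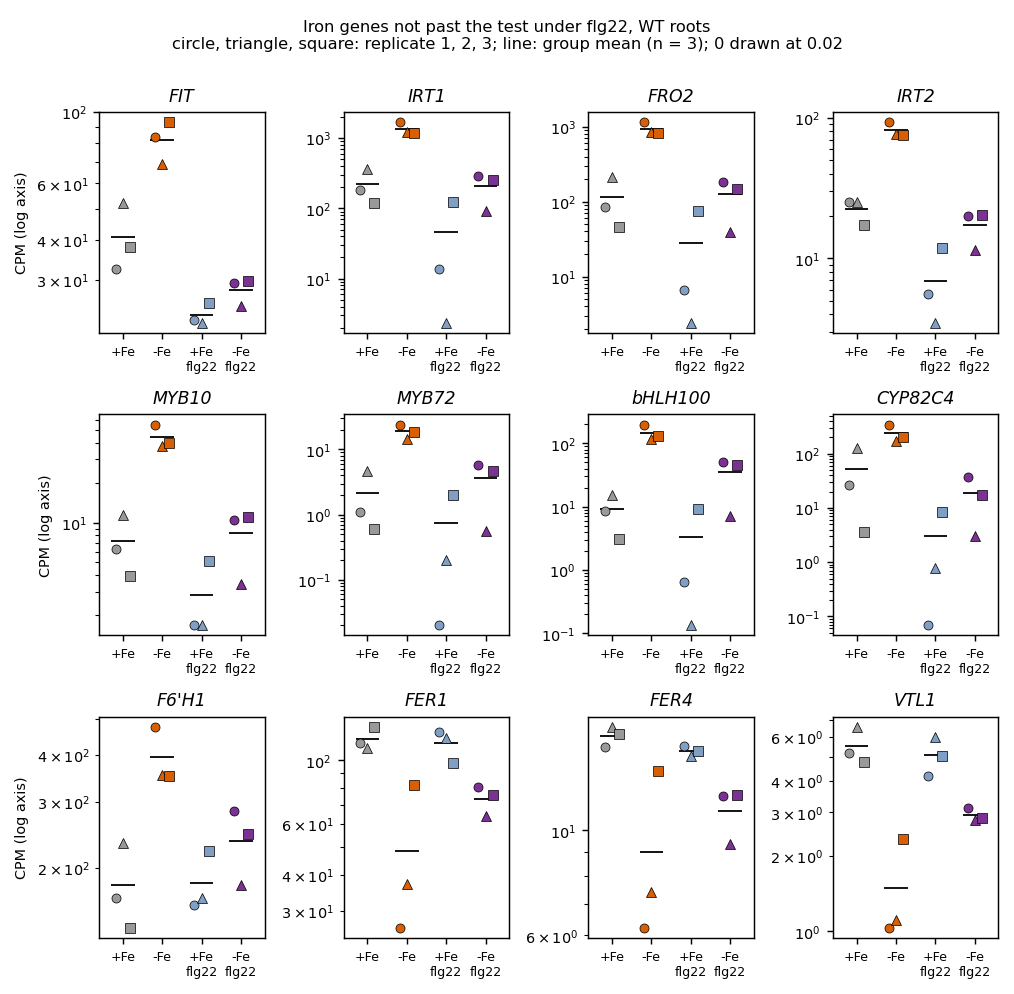
CPM on a log axis of 12 iron genes that were not called under flg22, in the 4 WT groups, with symbols for the 3 libraries and lines for group means. A value of 0 is drawn at 0.02. In the IRT1, FRO2 and bHLH100 panels, replicate 3 of the Fe-sufficient flg22 group (square) lies above replicate 2 of the Fe-deficient flg22 group (triangle).

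Coumarins are phenolics that roots secrete to mobilise ferric iron. None of the 6 coumarin genes was called under flg22, and 4 rose without it. F6'H1, which opens the pathway to scopoletin, was at 159, 166 and 222 CPM with Fe and at 283, 180.0 and 246 CPM without it. Its groups overlapped, and the log2 change was 0.37 ± 0.18 (adjusted p = 0.483) against 1.13 ± 0.18 in untreated roots. CYP82C4 and S8H, which act later, varied widely within groups, and their values of 2.67 ± 1.16 and 1.83 ± 2.34 carry little precision. The list median was 0.27 with flg22 and 0.96 without it. With all libraries, the difference between treatments was called for none of the 6. In edgeR 1 gene had an unadjusted p under 0.05, beside 10.4% of all genes tested, 0 being called by DESeq2 or limma. Without both libraries that stood apart, the list medians were 0.51 and 0.95, and 0 of the 6 were called under flg22.

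Vacuolar transporters keep surplus metals apart from the cytosol. Without flg22, 6 of the 7 tested members rose, and with flg22 ZIF1 alone did. The effect differed between treatments for ZIF1, NRAMP4, IREG2 and HMA3, all smaller with flg22. NRAMP4, which releases iron from the vacuole, was at 49.7, 48.1 and 47.2 CPM with Fe and at 72.5, 51.8 and 69.5 CPM without it. Its groups did not overlap, but its log2 fold change of 0.42 ± 0.10 had an adjusted p of 0.0946, against 1.37 ± 0.10 without flg22. IREG2 (also FPN2), which stores cobalt and nickel taken up with iron, was at 21.01, 20.2 and 20.8 CPM against 24.6, 18.8 and 25.3 CPM. Its log2 fold change was 0.15 ± 0.14 with flg22 and 1.14 ± 0.13 without it. HMA3, a vacuolar zinc and cadmium pump, had 0.35 ± 0.27 against 1.96 ± 0.24. MTPA2 and MTP8, which store zinc and manganese, were at 1.21 ± 0.28 and 2.39 ± 0.66 with flg22, neither called by edgeR. DESeq2 called MTPA2, MTP8 and NRAMP4 in addition to ZIF1. Without both libraries that stood apart, the differences of ZIF1 (-1.13) and NRAMP4 (-0.83) were still called, and those of IREG2 and HMA3 had adjusted p-values of 0.168 and 0.33.

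Ferritins and VTL proteins store iron, and all 7 tested storage genes fell in untreated Fe-deficient roots. Under flg22, 0 of the 7 were called, with a median log2 fold change of -0.42 against -1.13. At an unadjusted p there were 3 under 0.05 in edgeR, beside 10.4% of all genes tested, and DESeq2 and limma called 0. FER1, the main ferritin gene, was at 125, 119.9 and 98.2 CPM with Fe and at 80.6, 64.1 and 76.0 CPM without it. VTL1, a vacuolar iron transporter-like gene, was at 4.21, 6.01 and 5.05 CPM against 3.13, 2.80 and 2.85 CPM. Neither pair of groups overlapped, yet the log2 fold changes of -0.64 ± 0.23 and -0.80 ± 0.23 had adjusted p-values of 0.353 and 0.258. FER2 and VTL2 were near 0, at 0.03 and 0.04. The difference from untreated roots was called for none of the 7, although all 7 differences were positive.

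The genes of the subgroup IVc factors bHLH34, bHLH104, ILR3 and bHLH115 and of URI, whose proteins start the cascade, were not called with or without flg22. Their log2 fold changes under flg22 lay between -0.27 and 0.04. Over the 9 iron lists, 56 of 60 members were tested, and 13 rose and 0 fell under flg22, while 31 rose and 10 fell without it. Of the 41 called without flg22, 40 had a smaller effect with it, and 6 differences were called (BTS, BTSL2, HMA3, IREG2, NRAMP4 and ZIF1). Without both libraries that stood apart, 33 of the 41 had a smaller effect with flg22, and 4 differences were called (BTS, BTSL2, NRAMP4 and ZIF1). The 8 with a larger effect under that omission were FRO2, IRT1, IRT2, MTP8, MYB10, MYB72, bHLH38 and bHLH100, and their differences were not called. The difference test uses the same libraries as both WT comparisons.

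**Figure D4:**
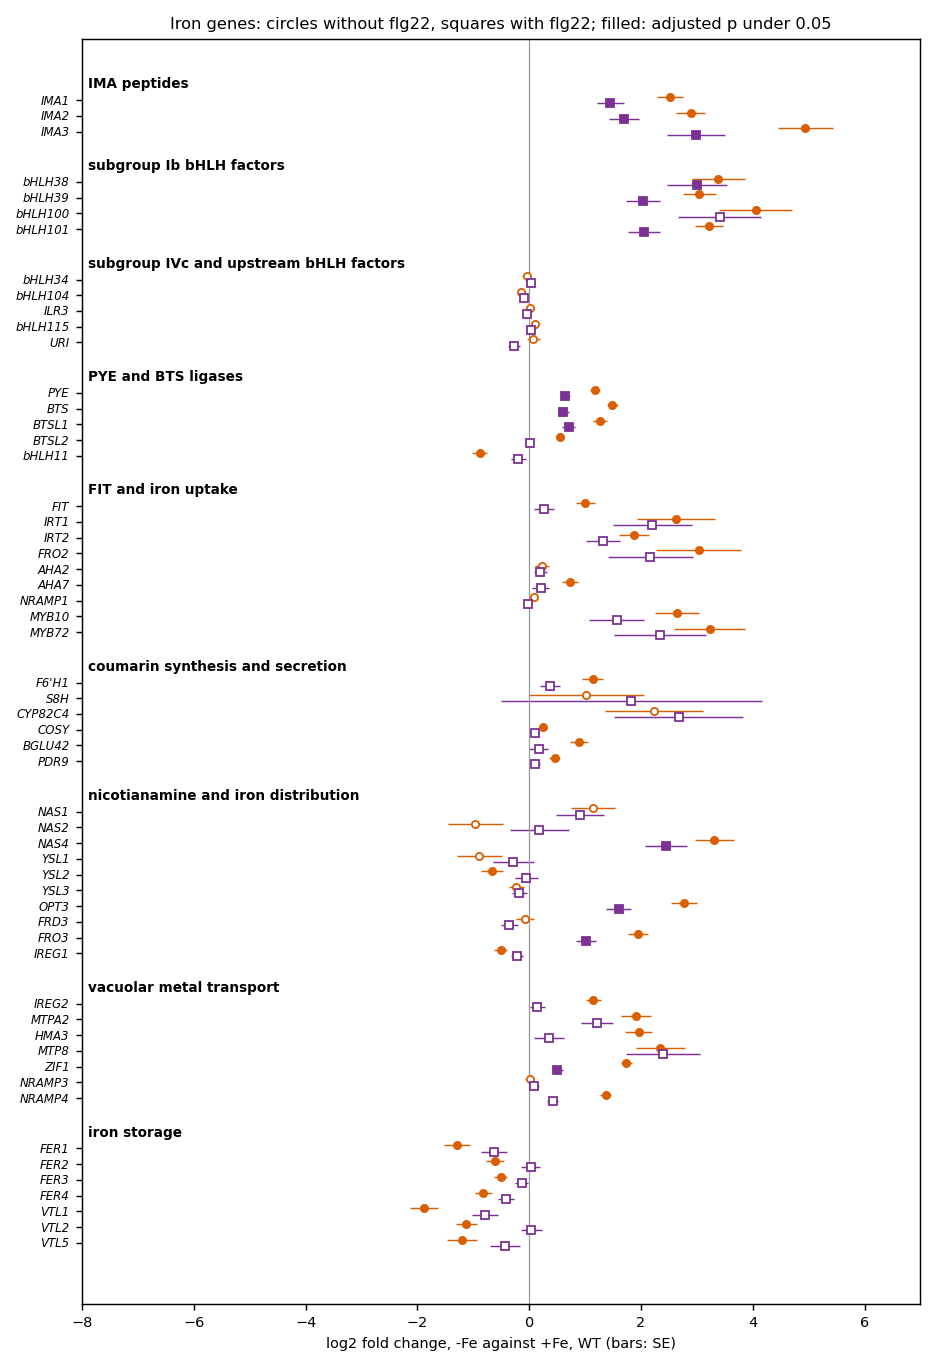
Log2 fold change (± SE, n = 3 libraries per group) of the 56 tested iron genes for Fe deficiency in WT, by list. Circles are untreated roots and squares flg22-treated roots, and filled symbols are called. Squares lie nearer 0 than circles for 40 of the 41 genes called without flg22, a count that is 33 without both libraries that stood apart (not drawn).

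Outside the iron lists, 11 genes rose. AT2G14247, an uncharacterised protein gene, had the highest fold change of the called genes, with 0.240, 0.267 and 0.912 CPM with Fe and 12.9, 3.76 and 9.07 CPM without it. It rose 18.1-fold (log2 4.18 ± 0.61, adjusted p = 0.00137) and 15.6-fold without flg22. With 1 library left out its log2 value ran from 3.76 to 5.06, the highest without Fe-sufficient replicate 3. ORG1 (AT5G53450), a gene responsive to the transcription factor OBP3, was at 43.9, 41.6 and 61.6 CPM against 121, 79.1 and 121 CPM. Its groups did not overlap, and it rose 2.19-fold (log2 1.13 ± 0.16, adjusted p = 0.00106) against 4.63-fold without flg22, a called difference. CGLD27 (AT5G67370), conserved in green plants, and AT5G05250 rose by 1.53 ± 0.26 and 1.16 ± 0.18 on the log2 scale. Smaller rises, from 0.22 to 0.56, were found for CDI, AT2G42750 (a DNAJ-domain gene), TSO2 (a ribonucleotide reductase subunit), AT3G56360, AT5G06940 and RABG3A.

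AT5G38200, annotated as a class I glutamine amidotransferase-like gene, rose under flg22 from 10.8, 7.44 and 13.9 CPM to 30.2, 20.11 and 21.3 CPM. That rise of 2.23-fold (log2 1.16 ± 0.20, adjusted p = 0.00732) stood beside 0.37 ± 0.19 without flg22, which was not called. It is 1 of the 3 called genes that were not called in untreated roots, with the receptor-like kinase gene AT5G06940 and AT5G20610. The difference between treatments was not called for any of the 3, with adjusted p-values of 0.381, 0.123 and 0.285.

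The 4 genes that fell did so by little. ABCI8 (AT4G04770), which encodes the plastid iron-sulphur assembly protein SUFB, was at 72.5, 74.3 and 65.1 CPM with Fe and at 55.9, 54.5 and 51.2 CPM without it. The groups were apart, and it fell by 0.39 ± 0.07 on the log2 scale (adjusted p = 0.00797), against a fall of 0.85 ± 0.07 without flg22. LTI30, a dehydrin gene, was at 209.7, 212 and 185 CPM against 149.6, 142 and 168 CPM and fell by 0.40 ± 0.08. SEX1, the glucan water dikinase of starch breakdown, fell by 0.30 ± 0.06, and AT5G20610 fell by 0.21 ± 0.04. LTI30 and AT5G20610 were not called without both libraries that stood apart.

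The difference between the flg22-treated and untreated effects in WT was called for 50 genes, 0.246% of those tested, 27 of them lower (0.133%) and 23 higher (0.113%) under flg22. All 50, in a test that shares its untreated libraries with the untreated comparison, had the larger effect without flg22 and were called there, and 5 were also called with flg22 (ABCI8, AT2G42750, BTS, ORG1 and ZIF1). Among genes with a smaller rise under flg22, NET3A, an actin-binding family member, was at 9.17, 8.34 and 8.14 CPM against 14.8, 8.61 and 12.05 CPM with flg22. Its groups overlapped, with a log2 fold change of 0.47 ± 0.15 against 1.48 ± 0.14 without flg22. AT1G13480, an uncharacterised gene, stood at 40.3 to 57.1 CPM with Fe and 45.5 to 64.7 CPM without it under flg22, and at 5.84 to 6.53 CPM and 11.5 to 17.6 CPM in untreated roots. Its level was high in all 6 flg22 libraries.

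Genes whose fall was smaller under flg22 included transporters and lipid enzymes. UMAMIT29, of an amino acid exporter family, was at 10.2, 8.74 and 7.23 CPM with Fe and at 5.77, 9.60 and 8.44 CPM without it under flg22. Those groups overlapped, at a log2 fold change of -0.14 ± 0.19, while without flg22 it fell by 1.44 ± 0.19. GPAT7, an acyltransferase gene, had 0.26 ± 0.19 with flg22 and -1.08 ± 0.19 without it. scpl5, AT1G55240, NYC1 (a chlorophyll b reductase) and CKX5 (a cytokinin oxidase) had differences from 0.91 to 1.25. Leaving out 1 library gave 20 to 61 called differences, with 20 without WT -Fe flg22 replicate 2 and 30 and 33 without WT +Fe replicate 3 and WT +Fe flg22 replicate 1. Without both libraries that stood apart, 6 differences were called, all among the 50.

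A set of iron-responsive genes chosen on other libraries gave the same measure without that overlap. In untreated fls2 roots, 62 genes rose and 22 fell by at least 2-fold, among 234 (1.15% of those tested) and 197 (0.968%) called at any size. Of the 62, 18 were called as higher in flg22-treated WT, where 0.118% of all genes were, and 60 of 62 had a positive value. Their median log2 fold change was 0.99 in flg22-treated WT and 2.03 in untreated WT, where 58 were called. The mean of log2(CPM + 1) over the 62 genes was 2.50, 2.40 and 2.85 in the Fe-sufficient flg22-treated WT libraries and 3.65, 2.99 and 3.54 in the Fe-deficient ones. In untreated WT it was 2.72, 3.11 and 2.54 with Fe and 4.71, 4.44 and 4.50 without it. The WT groups did not overlap in either treatment, and Fe-deficient flg22 libraries lay between the untreated groups except for replicate 2, which fell inside the untreated Fe-sufficient range. Of the 22 lowered genes, 0 were called under flg22 and 13 without it, with medians of -0.43 and -0.94. Under flg22, 8 of the 22 had an unadjusted p under 0.05 in edgeR, beside 10.4% of all genes tested. Of the 22, DESeq2 called 1 and limma 0.

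In fls2 roots, which lack a working flagellin receptor, Fe deficiency in the presence of flg22 raised 423 genes (2.08% of those tested) and lowered 656 (3.22%), together 5.3%, and 58 of the 62 raised genes were called with a median of 2.12. Of the 28 genes called in flg22-treated WT, 24 were also called in flg22-treated fls2, all in the same direction. The WT effect differed from the fls2 effect under flg22 for 47 genes (0.231%), 20 higher (0.0983%) and 27 lower (0.133%) in WT, all of them larger in size in fls2. That test uses the same libraries as both effects, so these sizes are not separate evidence. BTS rose by 1.42 ± 0.10 on the log2 scale in fls2, ZIF1 by 1.67 ± 0.10 and ORG1 by 2.16 ± 0.16, and each exceeded its WT value in the test of the difference. UMAMIT29 fell by 2.23 ± 0.20 on the log2 scale in fls2 against -0.14 in WT, also a called difference. The zinc transporter gene ZIP4 fell by 1.12 ± 0.13 in fls2 and was at -0.21 ± 0.12 in WT, a called difference (adjusted p = 0.0145). Without both WT libraries that stood apart, 12 differences from fls2 were called.

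IMA1ox roots under flg22 gave another picture of the iron genes. Fe deficiency raised 180 genes (0.884%) and lowered 281 (1.38%), together 2.26%, but the 62 raised genes had a median of 0.42 and 8 were called. In IMA1ox their mean log2(CPM + 1) was at 3.48 ± 0.02 (SD, n = 3) in Fe-sufficient flg22-treated roots and 3.83 ± 0.05 in Fe-deficient ones, beside 2.58 ± 0.23 and 3.39 ± 0.35 in WT. In untreated IMA1ox libraries this mean was 3.415, 3.51 and 3.503 with Fe and 3.697, 3.567 and 3.508 without it. Of the 28 genes called in WT, 7 were called in IMA1ox. The difference between the genotypes was called for 29 genes (0.142%), 6 higher (0.0295%) and 23 lower (0.113%) in IMA1ox, and of the 28 only IMA1, which the construct expresses, was among them.

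**Figure D5:**
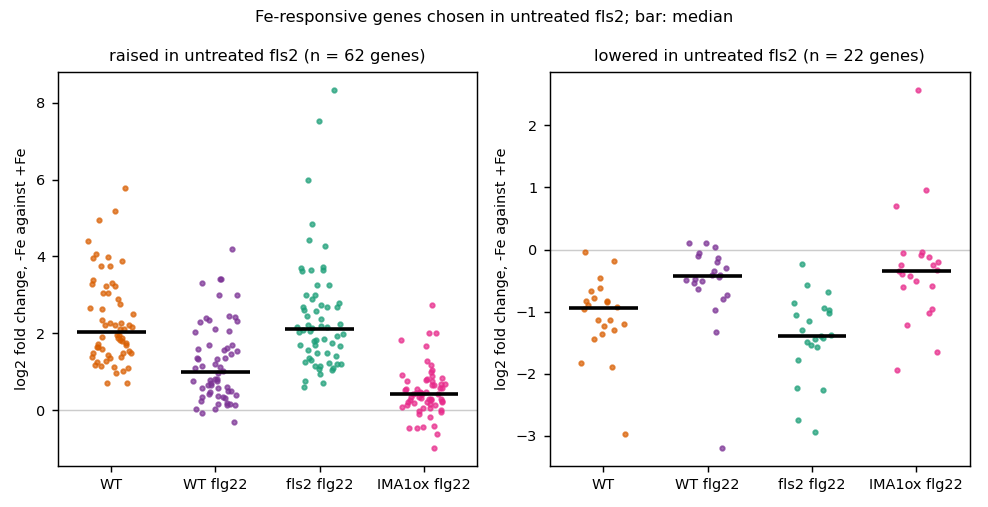
Log2 fold change for Fe deficiency of the 62 genes raised (left) and 22 genes lowered (right) by at least 2-fold in untreated fls2. Columns are untreated WT and flg22-treated WT, fls2 and IMA1ox, points are genes and bars are medians. The median of the raised genes was 2.03, 0.99, 2.12 and 0.42 in these columns.

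No gene of the other 11 pathway lists or of the 8 cell type lists was called under flg22 by edgeR, DESeq2 or limma. In edgeR 0.138% of all genes tested were called under flg22. Without flg22, 3.12% were called as higher and 2.85% as lower, the shares that stand beside the untreated counts below. At an unadjusted p under 0.05 in edgeR there were 6 of 93 pathway and 7 of 45 cell type genes, beside 10.4% of all genes tested. Of the 7, 3 were green shoot genes. Phenylpropanoid genes, which feed coumarin synthesis, had 8 of 8 called as higher without flg22 and a median of 0.38, against 0 of 8 and 0.09 with it. Their median with flg22 was 0.20 without both libraries that stood apart, against 0.37 in untreated roots. Suberin genes, which build the endodermal barrier, had 6 of 11 called as lower without flg22 and a median of -0.54, against 0 and 0.05 with it. Those medians were also -0.54 and 0.05 under that omission. Immunity marker genes had 5 of 12 called as higher without flg22 and 0 with it, with medians of 0.34 and 0.17. Without both libraries that stood apart, both medians were 0.34. The difference between treatments was called for 1 of the 12, as lower under flg22. The 3 zinc deficiency genes that fell without flg22 were not called with it. The difference between treatments was called for no phenylpropanoid, suberin or zinc deficiency gene.

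Hypoxia genes, which respond to low oxygen, were the list outside iron with the highest median, 0.81, and all 7 were positive. ADH1, alcohol dehydrogenase, was at 5.54, 6.24 and 11.6 CPM with Fe and at 46.0, 8.52 and 51.4 CPM without it. The groups overlapped through Fe-deficient replicate 2, the library low in iron genes, and ADH1 was at 2.19 ± 1.14 (adjusted p = 0.502). The 7 genes summed to 63.0, 59.9 and 87.6 CPM against 158, 75.1 and 184 CPM. In untreated WT the same sum ran from 80.8 to 527 CPM with Fe and from 126 to 485 CPM without it. The part of this shift in the iron results was not tested.

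Cell type markers gave 0 called genes and medians between -0.10 (root cap) and 0.20 (dividing cells), with green shoot genes at 0.18. The 9 green shoot values ran from -0.13 to 3.41, and their median was -0.56 without both libraries that stood apart. Root hair markers summed to 312 to 457 CPM with Fe and 346 to 405 CPM without it, and endodermal markers to 177 to 222 CPM and 194.9 to 239.7 CPM. These ranges overlapped in both lists.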

How the data were processed

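RNA was measured in 36 root libraries, and groups were taken from the labels. The authors deposited raw read counts for each locus and a CPM table, a normalised signal, which was checked to be the deposited counts times 1 constant per library (largest relative difference 2.2e-14). STAR 2.7.0a, edgeR 3.36.0 and TAIR10 are named in the submitters' processing notes without their roles. The counter and strand setting are not given in the sources used here. The reference at hand, TAIR10.1, supplied gene symbols only, so no positions are printed.

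The test of the counts used R 4.3.3 and edgeR 4.0.16, with TMM factors, a filterByExpr minimum of 10 counts, a mean for each group over all 36 libraries (24 residual degrees of freedom) and a robust quasi-likelihood F-test with Benjamini-Hochberg adjustment over 20354 of 24532 genes. The standard error of a log2 fold change is its size divided by the square root of F. CPM use TMM-scaled library sizes, with factors of 0.967 to 1.05 and library totals of 28130566 to 40903411. No replicate term was used, since the labels do not say what a replicate number marks and same-numbered correlations were not all over 0.1 in any comparison checked (WT with and without flg22, and fls2 and IMA1ox with flg22). The procedure was also run on counts simulated from the means and dispersions of its own fit, with known changes added. That simulation held no libraries like the pair that stood apart, so it cannot show how the calls depend on them.

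The 28 gene lists (201 genes, 194 tested) and the comparison itself were chosen with earlier results of these data known. Genes followed by name were, by rule, the 12 largest called changes each way with groups apart and at least 5 CPM. To these were added the 6 largest differences each way between treatments and 3 each way between genotypes. All iron list members were followed, and up to 3 members of other lists by size (all members of lists of up to 6). The text prints a part of these genes. The other called genes are also named, and their selection as examples followed their values. Alternative settings were DESeq2 1.42.0, limma 3.58.1 on log2(CPM + 1), RLE factors, plain library totals, all genes unfiltered, genes with 5 CPM in at least 3 libraries, the compared groups alone, a replicate block, a 2-fold minimum, other choices of iron-responsive genes and each library left out. Leaving out the 2 libraries that stood apart was added after the data were seen. VTL3 was not analysed here, and NAS3, VIT1, VTL4, SPX3, PR1 and PDF1.2 had too few counts to test.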

Additional observations from a re-analysis of the deposited data

Results flagged for a closer look

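The effect of Fe deficiency differed between flg22-treated and untreated WT roots (edgeR's quasi-likelihood test of the difference itself, adjusted p under 0.05) for the following named genes, given as the flg22-treated minus the untreated log2 fold change. The rise was smaller with flg22 for HMA3 (-1.61), ZIF1 (-1.24), AT1G13480 (-1.09), ORG1 (-1.08), NET3A (-1.01), IREG2 (-0.996), NRAMP4 (-0.95), BTS (-0.88), AT2G42750 (-0.76) and BTSL2 (-0.54). The fall seen without flg22 was smaller or absent with it for GPAT7 (1.33), UMAMIT29 (1.297), scpl5 (1.25), AT1G55240 (1.08), NYC1 (0.96), CKX5 (0.91) and ABCI8 (0.46).

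Under flg22, the effect differed between WT and fls2 roots, as WT minus fls2, for ZIF1 (-1.16), ORG1 (-1.03), NET3A (-1.01), UMAMIT29 (2.09), AT5G49770 (1.08) and ZIP4 (0.91). It differed between IMA1ox and WT roots, as IMA1ox minus WT, for AT5G24640 (5.17), AT1G34520 (3.27), AT2G03260 (1.21), PXMT1 (-2.29), VTL2 (-1.97) and AT1G05450 (-1.76). The comparisons share the flg22-treated WT libraries.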

How the results depend on the processing

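Fe deficiency under flg22 gave 28 called genes, 14 with a 2-fold minimum, 75 with DESeq2, 5 in a fit of the compared groups alone, 8 to 160 with 1 library left out and 80 without the 2 libraries that stood apart. In untreated WT the count of 1216 was 159 at 2-fold, 372 in the compared groups alone and 698 to 1181 with 1 library left out. The 50 differences between treatments became 14 at 2-fold, 131 with DESeq2, 19 in the compared groups alone, 20 to 61 with 1 library left out and 6 without the 2 libraries. In flg22-treated fls2 the count of 1079 was 127 at 2-fold, 1625 in the compared groups alone and 526 to 1163 with 1 library left out. The 47 differences between WT and fls2 became 5 at 2-fold, 90 with DESeq2, 19 to 46 with 1 library left out and 12 without the 2 libraries. In IMA1ox 461 became 99, 693 and 129 under the first 3 of these settings and 211 to 899 with 1 library left out. The 29 differences between IMA1ox and WT became 14, 110 and 17, 66 with limma and 11 to 50. In untreated fls2 431 became 84 at 2-fold and 257 to 333. The cause was not tested, except that fewer libraries or a fold minimum enter by construction.

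The median of the 62 raised iron-responsive genes, 0.99, was 0.17 over genes chosen with no fold minimum, 0.50 over genes chosen in untreated WT, 0.60 with limma, 1.32 without the 2 libraries and 0.69 to 1.22 with 1 library left out. The median of the 22 lowered genes, -0.43, was -0.17, -0.21, -0.30 and -0.41 under the first 4 of these, -0.43 with library totals alone, -0.42 with the 5 CPM filter and -0.46 to -0.33 with 1 library left out. For the named genes followed in flg22-treated WT and in the differences between treatments and genotypes, no alternative reversed the sign of a called value.

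Same-numbered libraries of the flg22-treated WT groups did not deviate together (correlations of 0.017, 0.069 and 0.00043, with 1 of 3 best with its own number). In flg22-treated fls2 they were 0.13, 0.019 and 0.13, with 3 of 3 best with their own number. A replicate block gave 25 called genes in flg22-treated WT, all among the 28, and 65 and 45 for the differences between treatments and between IMA1ox and WT. The median of the 22 lowered genes under the block was -0.42. With 3 pools per group, a log2 fold change of 2.20 ± 0.70 for IRT1 was not called.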
